A study of Xenopus laevis with 20 samples.

Results

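The cytosolic ribosomal protein genes of *Xenopus laevis* were represented by 92 of the 15491 probe sets that were tested on the Affymetrix *X. laevis* array. A probe set was counted as a member where its only gene symbol was *rpl*, *rps* or *rplp* followed by a number and ending in .L or .S, and S6 kinase and mitochondrial ribosomal protein genes were left out. The members carried 72 symbols of 64 genes: 37 probe sets were for proteins of the small (40S) subunit, 48 for the large (60S) subunit, 4 for the stalk (*rplp0.S*, *rplp1.L*, *rplp2.L* and *rplp2.S*) and 3 for close relatives of ribosomal proteins (*rpl3l.L*, *rpl7l1.L* and *rpl22l1.L*). Of the members, 43 were annotated to an L and 49 to an S homeolog, and 8 genes had both. Where a symbol had several probe sets (14 symbols) they were numbered from the highest to the lowest mean.

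The cytosolic ribosome is built from a small subunit, which binds the mRNA and decodes it, and a large subunit, which joins the amino acids and releases the protein through its exit tunnel. On the large subunit the acidic stalk proteins recruit the translation factors. In vertebrates ribosomal protein mRNAs start with a tract of pyrimidines (the TOP motif), which ties their translation to growth signals, and in the frog embryo the maternal ribosomes of the egg carry early development while new ribosomal protein mRNAs accumulate later. *X. laevis* is an allotetraploid, and many of its genes exist as an L and an S copy inherited from the ancestral parent species.

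Each of the 20 arrays measured one pool of dorsal or ventral pieces from 10 embryos, and the 5 conditions were made once in each of 4 clutches, clutches 3 and 4 at stage 11.5 (late gastrula) and clutches 1 and 2 at stage 10 (early gastrula). All embryos received *eGFP* mRNA as tracer, injected at the 4-cell stage into a single ventral cell near the equator, and were sorted for ventral fluorescence. Ventral pieces came from embryos that also received plasmid for the BMP inhibitor Noggin (**Nog**), for Noggin and the Wnt inhibitor Dkk-1 (**Nog+Dkk**) or for Dkk-1 (**Dkk**). Dorsal (**Dor**) and ventral (**Ven**) pieces of a clutch came from the same embryos with *eGFP* mRNA alone. Expression from a plasmid is mosaic and starts only with zygotic transcription, and the pieces were cut by the blastopore lip at stage 10 and by fluorescence at stage 11.5, so each sample was a mixture of all germ layers. In such bulk tissue, fewer cells of a type and less RNA per cell cannot be told apart.

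Values below are log2 of the deposited RMA intensities, on which a difference of 1 is a 2-fold change. A member was called where limma gave an adjusted p below 0.1 over all 15491 probe sets. For 2 stage 10 arrays, **Nog+Dkk** and **Dkk** of clutch 2, the titles and the characteristics named different clutches; the titles were followed. In the check of the labels, *dkk1.S* was higher than in **Ven** by 2.30 in **Nog+Dkk** and 2.1 in **Dkk** at stage 11.5 and by 2.08 and 2.27 at stage 10, *nog.L* by 0.63 in **Nog** at stage 11.5 (adjusted p = 0.00522) and 0.60 at stage 10 (adjusted p = 0.0589), *nog.L* by 0.75 in **Nog+Dkk** at stage 11.5 (adjusted p = 0.00151), and the organizer antagonist *chrd.1.S* by 2.31 and 2.52 on its 2 probe sets in **Dor** at stage 11.5. In **Nog+Dkk** at stage 10, which holds one of the arrays with 2 clutch labels, *nog.L* had 0.47 and did not pass the test (adjusted p = 0.203). Control probes of the array also differed between clutches, and their values stand beside the results below: the *gapdh* 3′ probes averaged 7.88 in clutch 4 and 8.78 in clutch 3, and 9.88 in clutch 2 and 6.87 in clutch 1.

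The median of the 92 members differed between clutches in every condition. At stage 11.5 it was 9.57 in **Nog**, 9.48 in **Nog+Dkk**, 9.58 in **Dkk**, 9.79 in **Dor** and 9.82 in **Ven** of clutch 4. The same medians in clutch 3 were 9.76, 10.11, 10.09, 10.15 and 10.22. At stage 10 they were 9.50, 9.67, 9.57, 9.55 and 9.54 in clutch 2, and 9.0, 8.79, 8.80, 8.73 and 8.58 in clutch 1, in the same order of conditions. Every clutch 1 array lay below every other array. The array medians of all probe sets stayed between 6.65 and 6.90, with 6.65 to 6.69 at stage 11.5 and 6.81 to 6.90 at stage 10. Quantile normalization between arrays largely sets these medians, so they are no independent contrast to the members.

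**Figure D1:**
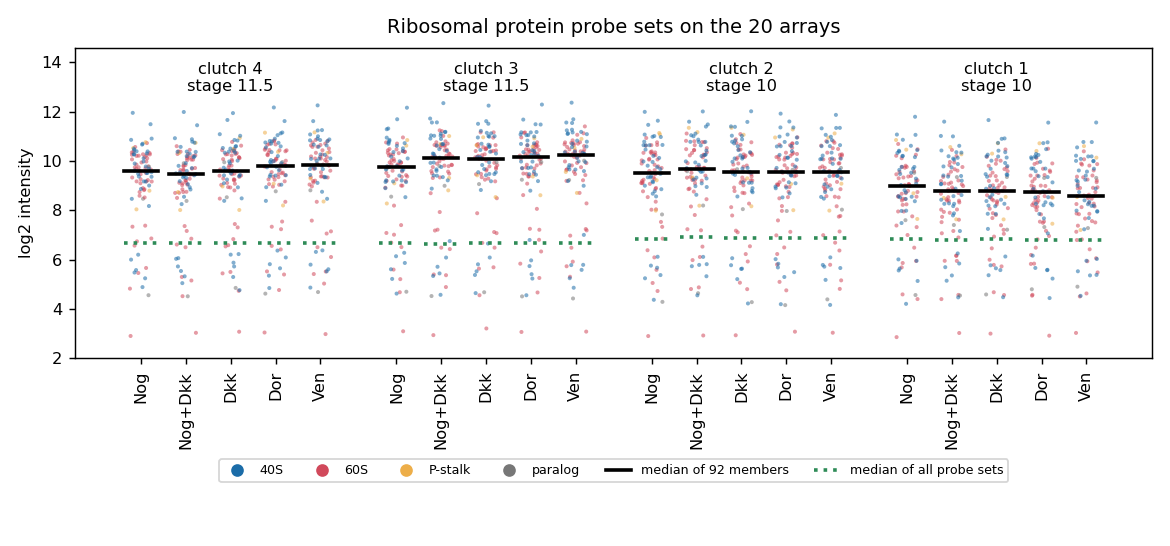
Log2 intensity (y axis) of the 92 ribosomal protein probe sets on each of the 20 arrays (x axis, grouped by clutch); colours give the subunit, black bars the median of the members and dotted lines the median of all probe sets. The 5 arrays of clutch 1 have the lowest member medians, 8.58 to 9.0. Within each condition clutch 3 has the highest, up to 10.22, though its **Nog** array (9.76) lies below **Dor** (9.79) and **Ven** (9.82) of clutch 4. The median of all probe sets stays near the same level, which the normalization between arrays largely sets.

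The first question was how the ribosomal protein genes differed between clutches of one stage, for which each clutch gave 5 arrays matched by condition. In clutch 2, 81 of the 92 members were higher than in clutch 1 and 2 were lower, by limma with Benjamini-Hochberg adjustment. This comparison called many genes, with 46.1% of all probe sets called, 26.4% higher and 19.7% lower. The median change was 0.68 over the members and 0.01 over all probe sets. The increase took in 30 of 37 members of the 40S subunit (median 0.65), 45 of 48 of the 60S subunit (median 0.75) and all 4 stalk probe sets (median 0.60).

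The 40S gene *rps12.L*, which encodes a protein near the beak of the small subunit, showed the largest change. It measured 9.34 in **Nog**, 9.57 in **Nog+Dkk**, 9.48 in **Dkk**, 9.55 in **Dor** and 9.29 in **Ven** of clutch 2. In clutch 1 it measured 7.97, 7.88, 7.85, 7.85 and 7.94 in the same conditions. The 2 sets of arrays did not overlap, and the means of 9.45 ± 0.13 in clutch 2 and 7.90 ± 0.06 in clutch 1 (SD, n = 5 each) differed by 1.55 (SE 0.0776, adjusted p = 3.56e-11). *rpl19.L*, whose protein forms a bridge between the subunits, averaged 10.50 ± 0.09 in clutch 2 and 8.99 ± 0.16 in clutch 1, a change of 1.51 (adjusted p = 1.29e-10). For *rpl21.L*, another 60S gene, the averages were 10.30 ± 0.05 and 8.81 ± 0.13, a change of 1.48 (adjusted p = 2e-11). The order of the arrays was the same for each of these genes, every clutch 2 array above every clutch 1 array.

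Next in size were the 60S genes *rpl29.L* (8.94 ± 0.09 in clutch 2, 7.55 ± 0.14 in clutch 1, change 1.38), *rpl32.L* (1.27) and *rpl27a.L* (1.14) and the 40S genes *rps3.S* (8.55 ± 0.06 in clutch 2, 7.24 ± 0.16 in clutch 1, change 1.31), whose protein lines the mRNA entry site, and *rps3a.L* probe set 2 (1.15). The stalk followed with 0.73 for *rplp0.S*, 0.55 each for *rplp1.L* and *rplp2.L* and 0.64 for *rplp2.S*. The members that fell were *rpl3l.L*, the relative of *rpl3* that in mammals is made in muscle (4.35 ± 0.18 in clutch 2, 4.68 ± 0.16 in clutch 1, change -0.33, adjusted p = 0.00604), and *rps18.L* of the 40S head (10.47 ± 0.14 and 10.65 ± 0.15, change -0.18, adjusted p = 0.0702). Among the 82 members with a mean of at least 6, 78 rose and 1 fell, with a median of 0.71. The 10 dimmer ones had 3 higher, 1 lower and a median of 0.01.

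Each clutch was one set of parents handled once, so these p-values measure the spread among 5 arrays of a clutch, and the parents, the handling and the RNA cannot be told apart. The *gapdh* 3′ control moved in the same direction as the members, with 9.88 in clutch 2 and 6.87 in clutch 1, and so did its 5′ control, with 9.26 and 6.38, and the *actb* 3′ control, with 6.12 and 5.51. The difference of *gapdh* 3′ minus 5′, a common measure of RNA integrity and labelling, was 0.58 to 0.68 in clutch 2 and 0.29 to 0.62 in clutch 1. Its part in the result was not tested.

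At stage 11.5 the members differed between clutches in the other direction and less. In clutch 4, 64 of 92 were lower than in clutch 3 and 1 was higher, where 44.9% of all probe sets were called, 22.5% higher and 22.4% lower. The median change was -0.30 over the members and -0.00 over all probe sets. Lower levels were found for 26 of 37 members of the 40S subunit (median -0.35), 34 of 48 of the 60S subunit (median -0.29) and 3 of 4 of the stalk. The 82 brighter members held all 64 that fell.

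The 60S gene *rpl28.S* fell most. It measured 9.17 in **Nog**, 9.09 in **Nog+Dkk**, 9.26 in **Dkk**, 9.50 in **Dor** and 9.54 in **Ven** of clutch 4. In clutch 3 the values were 9.75, 10.08, 10.09, 10.10 and 10.23. All arrays of clutch 4 were below all arrays of clutch 3, and the means of 9.31 ± 0.20 and 10.05 ± 0.18 (SD, n = 5 each) gave a change of -0.74 (SE 0.0687, adjusted p = 1.52e-07). *rpl35.L* probe set 1, for a protein at the exit of the tunnel, changed by -0.64, *rpl12.S*, for a protein at the base of the stalk, by -0.63 (9.02 ± 0.19 in clutch 4, 9.66 ± 0.17 in clutch 3) and *rps27.S* probe set 4, for a zinc finger protein of the 40S subunit, by -0.61. Further genes with large changes were *rpl14.S* (-0.59), *rpl19.L* (-0.59), *rpl5.S* (-0.58), whose protein carries the 5S rRNA, and *rps18.L* (-0.56).

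The exception that rose was *rps10.L* probe set 2, a dim probe set with 4.88 ± 0.10 in clutch 4 and 4.65 ± 0.12 in clutch 3 (change 0.23, adjusted p = 0.0354). In the stalk *rplp0.S* (-0.21, adjusted p = 0.0197), *rplp2.L* (-0.46) and *rplp2.S* (-0.38) fell, whereas *rplp1.L* had 10.95 in clutch 4 and 10.93 in clutch 3 (change 0.02, adjusted p = 0.872). The *gapdh* 3′ control was also lower (7.88 in clutch 4, 8.78 in clutch 3). The *actb* controls were not, with 7.1 in clutch 4 and 7.05 in clutch 3 for the 3′ and 9.65 and 9.47 for the 5′ probes, nor was the probe set of *gapdh.L* itself (change 0.11, adjusted p = 0.2). The difference of *gapdh* 3′ minus 5′ was 0.56 to 1.0 in clutch 4 and 0.77 to 1.4 in clutch 3. The part of the controls in the result was not tested.

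**Figure D2:**
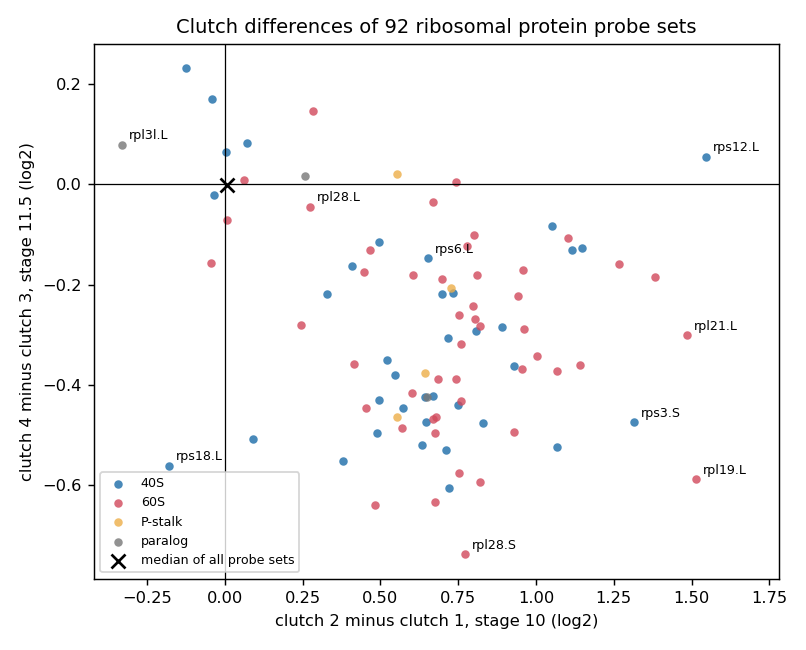
Change of each of the 92 members in log2 intensity between clutches, clutch 2 minus clutch 1 at stage 10 (x axis) against clutch 4 minus clutch 3 at stage 11.5 (y axis), 1 point per probe set coloured by subunit, with a cross at the median of all probe sets. Most points lie right of 0 and below 0: 62 members were called higher in clutch 2 and also called lower in clutch 4, against 7.72% of all probe sets. The clutch numbers are only labels, so the signs on the axes are not a reversal between stages.

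Across the 4 clutches most members shared the clutch with the lowest mean and the clutch with the highest. The lowest of the 4 clutch means was that of clutch 1 for 84 of 92 members, against 23.9% of all probe sets, and the highest was that of clutch 3 for 71, against 23.2%. Most of the family followed 1 of 2 orders, clutch 1 below 2 below 4 below 3 in 36 members (7.77% of all probe sets) and clutch 1 below 4 below 2 below 3 in 32 (2.44%). In the others the highest mean was in clutch 2 (10 members), clutch 4 (9), clutch 3 (3) or clutch 1 (2). These counts describe the same arrays as the tests above.

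The second question was the change from early to late gastrula. At stage 11.5, 53 members were higher than at stage 10 and 2 were lower, where 48.1% of all probe sets were called, 21.5% higher and 26.6% lower. The median change was 0.48 over the members and -0.04 over all probe sets. The 40S subunit had 22 of 37 higher and 1 lower (median 0.40), the 60S subunit 28 of 48 higher and 1 lower (median 0.54), and the stalk 1 of 4 higher (median 0.13). Each stage held 2 clutches of its own, and both stage 11.5 clutch means were above both stage 10 clutch means for 43 of the members (28.8% of all probe sets) and below them for 2 (37.1%).

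The largest rise was that of *rpl35a.S* probe set 1, a gene of the 60S subunit. Its values at stage 11.5 were 10.16 in **Nog**, 10.05 in **Nog+Dkk**, 10.12 in **Dkk**, 10.50 in **Dor** and 10.58 in **Ven** of clutch 4 and 10.22, 10.60, 10.52, 10.67 and 10.84 in clutch 3. At stage 10 they were 9.27, 9.63, 9.54, 9.38 and 9.32 in clutch 2 and 8.67, 8.45, 8.52, 8.42 and 8.27 in clutch 1. The stages did not overlap, and the change was 1.48 (SE 0.226, adjusted p = 3.8e-05). Each stage had only 2 clutches, but the fit counted 10 residual and 7.48 prior degrees of freedom from the arrays. It used a single correlation of 0.533 for all probe sets. The p-value is thus not that of a comparison of 2 clutches with 2, and it can be too small. The second probe set of the gene changed by 1.21.

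*rpl31.S*, for a protein at the tunnel exit, followed with 1.33 (clutch means 9.15 and 9.33 at stage 11.5, 8.22 and 7.61 at stage 10, adjusted p = 3.39e-05). *rpl23.S*, for a protein on the 60S face towards the small subunit, changed by 1.32 (9.33 and 9.79 at stage 11.5, 8.58 and 7.90 at stage 10), and *rps21.S* of the 40S subunit by 1.26 (9.76 and 10.12, 9.14 and 8.22). *rpl8.S*, often used as a reference gene for qPCR in *Xenopus*, changed by 1.19 (adjusted p = 9.14e-05), *rpl7a.S* by 1.18 (9.31 and 9.78, 8.69 and 8.03) and *rpl27a.L* by 1.15. The relative *rpl22l1.L* also rose, by 1.12. The 2 members that fell were both among the 10 with a mean under 6: *rpl35.L* probe set 2 had 5.39 and 5.51 at stage 11.5 and 6.53 and 5.75 at stage 10 (change -0.68, adjusted p = 0.00973), and *rps10.L* probe set 1 changed by -0.37 (adjusted p = 0.033).

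The size of the rise hung on the clutches and on the normalization. Its median over the members was 0.16 without clutch 1, 0.30 without clutch 3, 0.76 without clutch 2 and 0.64 without clutch 4. With cyclic loess the median was 0.31 and with array medians set equal it was 0.65, against 0.48 in the main fit. With the 2 stages each at 2 clutches, stage and clutch cannot be fully told apart. This limits all p-values given with stage, those of the homeolog pairs included. By condition, the median of the members at stage 11.5 was above that at stage 10 by 0.42 in **Nog**, 0.56 in **Nog+Dkk**, 0.65 in **Dkk**, 0.83 in **Dor** and 0.97 in **Ven**.

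The third question, the one of the study, was how ventral tissue with plasmid for Noggin and Dkk-1 differed from **Ven**. **Ven** received no plasmid, and no condition had a plasmid without an inhibitor. Plasmid and inhibitor therefore cannot be told apart, and the part of the plasmid was not tested. At stage 11.5 in **Nog**, 39 of the 92 members were lower than in **Ven** and 1 was higher, against 8.57% of all probe sets called, 4.15% higher and 4.42% lower. The median change was -0.32 over the members, with a range of -0.66 to 0.42, and -0.03 over all probe sets. In clutch 4 the median difference of **Nog** from its own **Ven** array was -0.27, with 82 of 92 members below 0. In clutch 3 it was -0.36, with 85 below 0. The members lower in both clutches numbered 77, against 30.6% of all probe sets, and those higher in both 2.

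Lower levels in **Nog** were called for 19 of 37 members of the 40S subunit (median -0.34), 17 of 48 of the 60S subunit (median -0.29, 1 higher), 2 of 4 of the stalk and 1 of the 3 relatives, *rpl22l1.L* (-0.51, adjusted p = 0.0409). By homeolog, 14 of 43 L probe sets and 25 of 49 S probe sets were lower. This split does not compare copies, because 28 genes had only L and 28 only S probe sets, and some symbols had several. The 9 symbols with at least 2 brighter probe sets had the same sign on all of them.

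The 40S gene *rps6.L*, whose protein is the substrate of the S6 kinases, fell most. It measured 9.16 in **Nog** and 9.67 in **Ven** of clutch 4, and 9.15 in **Nog** and 9.95 in **Ven** of clutch 3. The **Nog+Dkk**, **Dkk** and **Dor** arrays had 9.31, 9.43 and 9.44 in clutch 4, and 9.40, 9.54 and 9.71 in clutch 3. In both clutches **Nog** was the lowest of the 5 arrays and **Ven** the highest, and the change of -0.66 (SE 0.122) had an adjusted p of 0.00572. Its homeolog *rps6.S* probe set 1 had 6.0 in **Nog** and 6.31 in **Ven** of clutch 4, and 6.28 in **Nog** and 7.0 in **Ven** of clutch 3, a change of -0.52 (adjusted p = 0.0207).

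*rpl35.L* probe set 1 of the tunnel exit measured 10.25 in **Nog** and 10.85 in **Ven** of clutch 4 and 10.71 in **Nog** and 11.40 in **Ven** of clutch 3, a change of -0.65 (adjusted p = 0.00904). *rps28p9.S* probe set 1, which the platform table names after a pseudogene of the 40S gene *rps28*, had 10.26 in **Nog** and 10.87 in **Ven** of clutch 4 and 10.51 in **Nog** and 11.18 in **Ven** of clutch 3, a change of -0.64 (adjusted p = 0.005). *rps27.S* probe set 4 had 9.52 in **Nog** and 10.27 in **Ven** of clutch 4 and 10.10 in **Nog** and 10.59 in **Ven** of clutch 3, with a change of -0.62 (adjusted p = 0.015). In each clutch these genes were lower in **Nog** than in **Ven**, **Dor** and **Dkk**.

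Further probe sets with a drop of over 0.5 included *rps15.S* of the 40S head (9.51 in **Nog** and 10.10 in **Ven** of clutch 4, 9.80 and 10.35 in clutch 3, change -0.57, adjusted p = 0.0441). Others were *rpl18.S* of the 60S subunit (7.33 and 7.58 in clutch 4, 7.40 and 8.28 in clutch 3, change -0.56, adjusted p = 0.0458) and *rpl37.S*, a 60S zinc finger protein gene (10.21 and 10.82 in clutch 4, 10.32 and 10.76 in clutch 3, change -0.53, adjusted p = 0.0355). A change of -0.52 was found for *rps29.S* probe set 3, *rps21.S* and *rpl35a.S* probe set 1. The only member that rose was *rpl3.L* probe set 2 (6.74 in **Nog** and 6.10 in **Ven** of clutch 4, 6.69 and 6.48 in clutch 3, change 0.42, adjusted p = 0.0549). *rpl3* encodes a protein of the peptidyl transferase centre, and its brighter probe set 1 changed by 0.06 (adjusted p = 0.87).

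**Figure D3:**
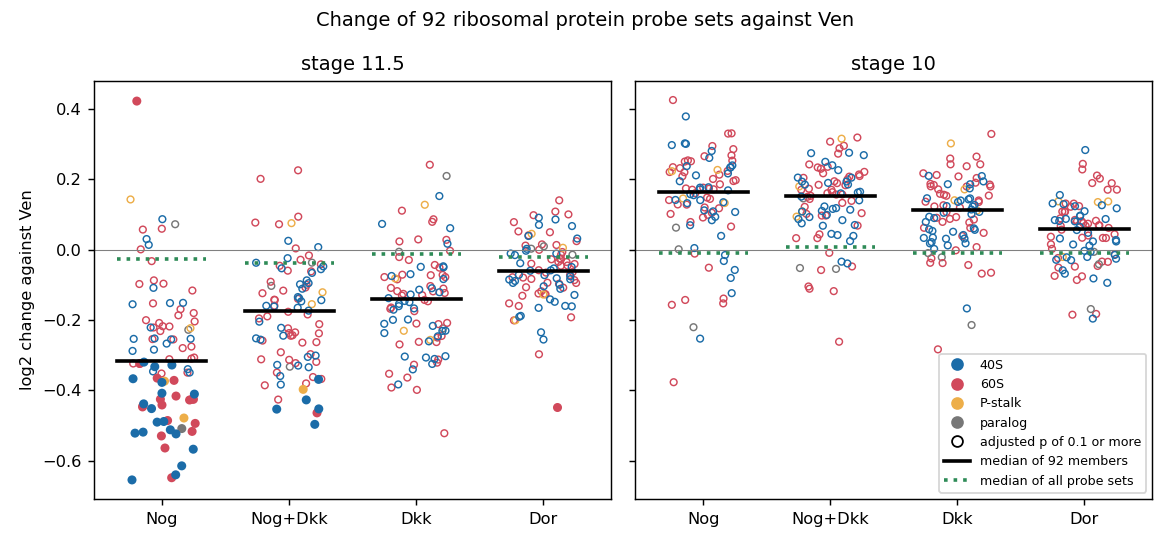
Change of the 92 members against **Ven** in log2 intensity (y axis) in **Nog**, **Nog+Dkk**, **Dkk** and **Dor** at stage 11.5 (left) and stage 10 (right); filled points have an adjusted p below 0.1, black bars are the medians of the members and dotted lines those of all probe sets. The **Nog** points at stage 11.5 have a median of -0.32 and 40 filled points, while no point at stage 10 is filled.

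**Figure D4:**
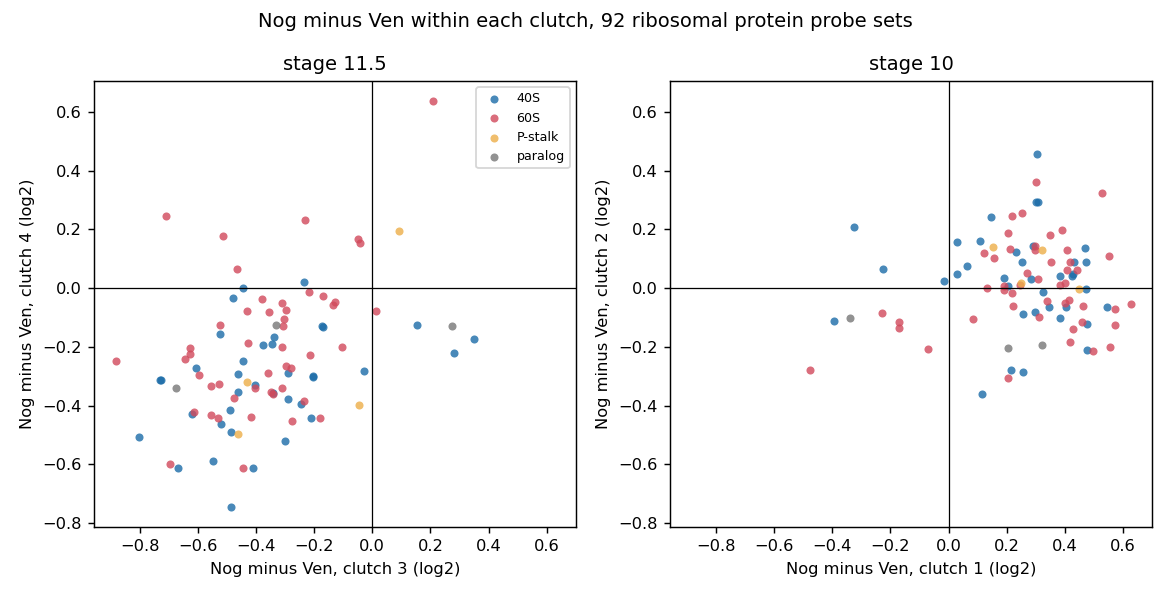
Difference in log2 intensity between **Nog** and the clutch-matched **Ven** array, 1 point per member: clutch 3 (x axis) against clutch 4 (y axis) at stage 11.5 and clutch 1 (x axis) against clutch 2 (y axis) at stage 10. At stage 11.5 77 of the 92 members are below 0 on both axes, and at stage 10 the clutch 1 median is 0.30 and the clutch 2 median 0.01.

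The number of calls in **Nog** depended on the fit. With 1 clutch left out each condition at stage 11.5 had 1 array, so such fits cannot decide which clutch the calls needed. With stage 11.5 fitted alone 18 members were called, all of them lower, where 589 of all probe sets were called (1328 in the main fit). With no clutch block the fit called 0 members and also 0 of all probe sets, so this loss was not particular to the members. Rank products, the method of the study, called 0 members at 10% FDR. At an unadjusted p below 0.05 limma gave 1 higher and 59 lower, against 8.21% and 11.2% of all probe sets. The difference of *gapdh* 3′ minus 5′ was 0.56 in **Nog**, 0.82 in **Nog+Dkk**, 0.76 in **Dkk**, 0.81 in **Dor** and 1.00 in **Ven** of clutch 4, and 0.77, 0.97, 1.1, 1.15 and 1.40 in clutch 3. It was lowest in **Nog** and highest in **Ven** in both clutches. The same difference of the *actb* controls followed another order, with -2.67 in **Nog**, -2.75 in **Nog+Dkk**, -2.69 in **Dkk**, -2.22 in **Dor** and -2.41 in **Ven** of clutch 4, and -2.60, -2.12, -2.57, -2.46 and -2.35 in clutch 3, though **Nog** was below **Ven** in both. The part of the controls in the result was not tested.

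Markers of other tissues also moved in **Nog** at stage 11.5, where 4.15% of all probe sets were called higher and 4.42% lower. None of the marker lists below had calls in both directions. RMA values have no true zero, so the absence of a tissue cannot be read from them. The summed intensity of 20 organizer probe sets was 4247 in **Nog** and 3171 in **Ven** of clutch 3, and 5167 and 4907 in clutch 4, with 5 called higher. This list includes *nog* and *dkk1*, the genes on the plasmids. *nog.L* was among the calls (0.63, adjusted p = 0.00522 by limma), and its part in the call and in the sum cannot be read as a sign of tissue. For 15 ventral mesoderm probe sets it was 5218 in **Nog** and 7162 in **Ven** of clutch 3, and 5219 and 6655 in clutch 4, with 5 called lower. For 16 endoderm probe sets it was 9699 and 7136 in clutch 3, and 9606 and 9222 in clutch 4, with 3 called higher; 19 epidermis probe sets had 13085 and 17379 in clutch 3, and 14079 and 14390 in clutch 4, with 2 called lower. The 10 neural plate probe sets had 6826 in **Nog** and 5362 in **Ven** of clutch 3, and 4875 and 5616 in clutch 4, with none called, and the 4 germ plasm probe sets had 1662 and 1114 in clutch 3, and 1257 and 1155 in clutch 4, with 2 called higher. A sum leans on the brightest probe sets. In clutch 4 the endoderm median was 8.92 in **Nog** and 9.12 in **Ven**, and the germ plasm median 7.95 and 8.16. Both were thus lower in **Nog**, unlike the sums, though the germ plasm probe sets had a median difference of 0.10. In clutch 3 these medians were higher in **Nog**, with 9.14 and 8.88 for endoderm and 8.71 and 8.09 for germ plasm. The part of the marker shifts in the ribosomal protein result was not tested.

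In **Nog+Dkk** at stage 11.5, 7 members were lower than in **Ven** and none was higher, against 4.6% of all probe sets called, 2.66% higher and 1.94% lower. The median change was -0.18, with -0.33 in clutch 4 and -0.06 in clutch 3. The called members were *rps28p9.S* probe set 1 (-0.50, adjusted p = 0.027), *rpl28.L* (-0.46), *rps27.S* probe set 4 (-0.45), *rps6.L* (-0.45, adjusted p = 0.0574), *rps12.L* (-0.43), *rplp2.S* (-0.40) and *rps13.L* (-0.37), of which 5 belong to the 40S subunit. All 7 were also called lower in **Nog**. Of all probe sets, 300 were called lower in **Nog+Dkk**, and 135 (0.871% of all) were called lower in both. The 2 comparisons used the same **Ven** arrays, so these counts are a description. Fits with 1 clutch left out had 1 array per condition at this stage and cannot decide which clutch the calls needed.

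**Dkk** gave no called member at stage 11.5, where 0.445% of all probe sets were called, 0.194% higher and 0.252% lower. At an unadjusted p below 0.05 limma gave 20 lower and 0 higher, against 4.24% and 3.75% of all probe sets. Its median was -0.14, with -0.20 in clutch 4 and -0.13 in clutch 3, and the lowest adjusted p was that of *rpl28.L* (-0.52, adjusted p = 0.127). In **Dor** only *rpl28.L* was called (-0.45, adjusted p = 0.0905), where 2.84% of all probe sets were, 1.5% higher and 1.34% lower, and the median was -0.06. *rpl28.L* was a dim probe set, with 4.82 in **Nog**, 4.51 in **Nog+Dkk**, 4.73 in **Dkk**, 4.77 in **Dor** and 5.03 in **Ven** of clutch 4 and 4.68, 4.89, 4.55, 4.67 and 5.30 in clutch 3. It was thus **Ven** that stood above the other 4 arrays in each clutch.

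When the 3 plasmid conditions were averaged at stage 11.5, 26 members were lower than in **Ven** and none higher, against 6.86% of all probe sets called, 3.74% higher and 3.12% lower, with a median of -0.21. The lowest were *rps28p9.S* probe set 1 (-0.51, adjusted p = 0.0063), *rps6.L* (-0.48, adjusted p = 0.0128) and, at -0.47 each, *rps27.S* probe set 4, *rpl28.L* and *rpl35.L* probe set 1. *rps6.L* changed by -0.66 with **Nog** and -0.45 with **Nog+Dkk**, and had -0.33 with **Dkk** and -0.23 with **Dor**, of which **Dkk** (adjusted p = 0.449) and **Dor** (adjusted p = 0.515) did not pass the test.

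At stage 10 no member was called in any comparison with **Ven**. The shares of all probe sets called were 0.129% for **Nog**, 0.271% for **Nog+Dkk** (0.252% higher, 0.0194% lower), 0.0452% for **Dkk**, 0.684% for **Dor** and 0.207% for the 3 plasmid conditions averaged. At an unadjusted p below 0.05, limma gave 16 members higher for **Nog**, 9 for **Nog+Dkk**, 3 for **Dkk** and 0 for **Dor**, against 4.26%, 3%, 1.6% and 2.1% of all probe sets. *rpl3.L* probe set 2 was the 1 member lower at that threshold for each of **Nog**, **Nog+Dkk** and **Dkk**, where 5.35%, 2.11% and 1.67% of all probe sets were. The median changes were above 0 throughout, at 0.16 for **Nog**, 0.15 for **Nog+Dkk**, 0.11 for **Dkk** and 0.06 for **Dor**. They depended on the setting: without the 2 arrays of conflicting clutch labels the median was 0.07 for **Nog+Dkk**, and with cyclic loess normalization it was 0.09 for **Nog** and 0.10 for **Nog+Dkk**. For **Nog** the clutches differed, with 0.01 in clutch 2 (50 of 92 members above 0) and 0.30 in clutch 1 (82 above 0). *rpl24.L*, for a protein bridging the subunits, came closest to a call in **Nog** (0.43, adjusted p = 0.375).

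The difference between the stages was tested itself. The change of **Nog** against **Ven** at stage 11.5 minus that at stage 10 was called for 18 members, 17 of them below 0 and 1 above, against 1.56% of all probe sets, with a median of -0.49 over the members. The lowest were *rps27.S* probe set 4 (-0.92), *rpl35.L* probe set 1 (-0.86), *rps21.S* (-0.80) and *rps6.L* (-0.80), and *rpl3.L* probe set 2 was above 0 (0.80), while probe set 1 of that gene had -0.16 (adjusted p = 0.749). For **Nog+Dkk** none was called (43 lower at an unadjusted p below 0.05, against 5.57% of all probe sets, and 1 higher, against 3.35%; median -0.34), where 0.142% of all probe sets were (0.0581% higher, 0.0839% lower), and none for **Dkk** (median -0.26, 0.0129%) or **Dor** (median -0.12, 0.523%). With no clutch block 0 members were called for **Nog**. With 1 clutch left out, each condition of that stage had 1 array, so these fits cannot decide which arrays the calls needed. The median of the **Nog** difference was then -0.32 without clutch 1, -0.60 without clutch 2, -0.44 without clutch 3 and -0.54 without clutch 4.

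The genes used as references in qPCR were not level across these arrays. *rpl8.S* measured 10.21 in **Nog**, 10.13 in **Nog+Dkk**, 10.22 in **Dkk**, 10.24 in **Dor** and 10.26 in **Ven** of clutch 4 and 10.26, 10.44, 10.47, 10.37 and 10.39 in clutch 3. At stage 10 it had 9.59, 9.69, 9.61, 9.52 and 9.54 in clutch 2 and 8.74, 8.67, 8.70, 8.57 and 8.47 in clutch 1. Within a clutch it stayed close, and **Nog** differed from **Ven** by -0.09 at stage 11.5 (adjusted p = 0.704), but clutch 2 was above clutch 1 by 0.96 and clutch 4 below clutch 3 by 0.17 (change -0.17, adjusted p = 0.0379). *rpl13a.L* had clutch means of 10.28 in clutch 4, 10.62 in clutch 3, 10.72 in clutch 2 and 9.72 in clutch 1 on probe set 1, and 8.91, 9.27, 8.68 and 7.72 on probe set 2. Only probe set 2 rose with stage (0.89, adjusted p = 0.0033), and probe set 1 changed by 0.23 (adjusted p = 0.476).

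The stalk genes did not move as one. *rplp0.S*, which anchors the stalk, had 10.52 in **Nog**, 10.32 in **Nog+Dkk**, 10.48 in **Dkk**, 10.37 in **Dor** and 10.33 in **Ven** of clutch 4 and 10.62, 10.69, 10.64, 10.58 and 10.53 in clutch 3, so **Nog** was above **Ven** in both clutches (0.14, adjusted p = 0.504). *rplp2.S* had 8.79, 8.74, 8.97, 9.08 and 9.29 in clutch 4 and 9.10, 9.31, 9.42, 9.37 and 9.56 in clutch 3, with **Ven** highest in both (**Nog** -0.48, adjusted p = 0.018). *rplp2.L* was called in **Nog** as well (-0.37, adjusted p = 0.0968), and *rplp1.L* was not (-0.22, adjusted p = 0.375). With stage only *rplp2.L* was called (0.57, adjusted p = 0.02), while *rplp0.S* (-0.17, adjusted p = 0.502) and *rplp1.L* (-0.03, adjusted p = 0.925) did not pass the test. *rplp2.S* changed by 0.29 without a call. Its change did not differ from that of *rplp2.L* by the test of the L minus S difference (0.28, adjusted p = 0.234).

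Over the 20 arrays the range of a member's values went from 0.35 for *rpl34.L* probe set 2, 0.39 for *rps6.S* probe set 2 and 0.42 for *rps20.L* to 2.32 for *rpl23.S*, 2.39 for *rps21.S* and 2.57 for *rpl35a.S* probe set 1. The 3 members with the smallest range were all among the 10 with a mean under 6. Probe sets of one gene therefore did not always show the same range, as for *rps6.S*, whose brighter probe set rose with stage by 0.72.

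The L and S copies of a gene were compared by the change of the difference between their probe sets, over 1017 genes with both copies on the array. Between clutch 2 and clutch 1 the copies changed differently in 6 of 8 ribosomal protein genes, against 55.8% of all pairs. The L copy rose more in *rps12* (L minus S 0.85, adjusted p = 3.81e-07), *rps6* (0.56), *rpl4* (0.52), whose protein lines the tunnel, and *rps3a* (0.31), and the S copy in *rps3* (-0.74, adjusted p = 8.57e-07) and *rpl28* (-0.50). For *rpl5* the difference was 0.01 and for *rplp2* it was -0.09, neither of which passed the test. The copies of a gene were not always equally bright. *rpl28.L* had a mean of 4.72 against 9.59 for *rpl28.S*, and *rps6.S* had 6.08 against 9.07 for *rps6.L*. The part of dim probe sets in these differences was not tested. Both *rps3a* probe sets have names that mark shared signal. Without probe sets of such names, 6 pairs differed between clutches 2 and 1, and 4 between clutches 4 and 3.

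Between clutch 4 and clutch 3, 5 of 8 pairs differed, against 50.6% of all pairs: *rpl28* (0.69), *rps6* (0.36), *rps12* (0.27), *rpl4* (-0.25) and *rps3a* (0.16). With stage, 3 of 8 differed, against 33.8% of all pairs. The L copy rose more in *rps12* (0.94, adjusted p = 0.00555), in *rpl4* (0.71, adjusted p = 0.0104) and in *rpl5* (0.39, adjusted p = 0.0548). *rps12.L* changed by 0.78 with stage and *rps12.S* by -0.16, with clutch means of 10.41 in clutch 4 and 10.63 in clutch 3 against 11.03 in clutch 2 and 10.34 in clutch 1 for the S copy. In no comparison with **Ven** did a pair of ribosomal protein copies pass the test, where 0 to 27 of the 1017 pairs did.

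**Figure D5:**
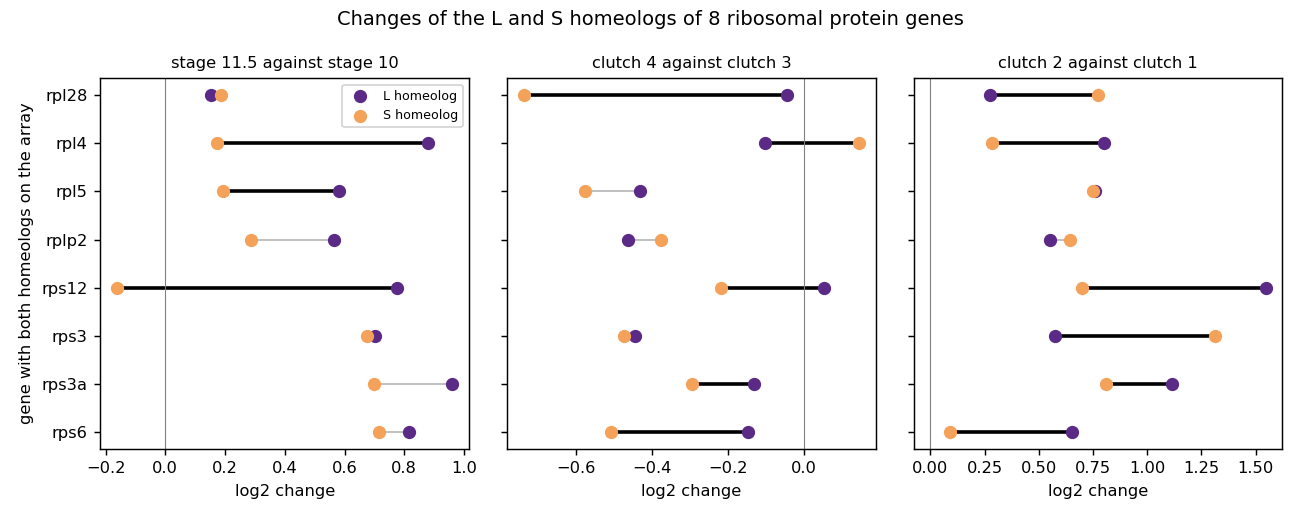
Change in log2 intensity (x axis) of the L and the S copy of the 8 ribosomal protein genes with both copies on the array (y axis), between the stages (left), clutches 4 and 3 (middle) and clutches 2 and 1 (right); a thick black line joins copies whose changes differed at an adjusted p below 0.1. The largest gap is that of *rps12* with stage, 0.78 for L and -0.16 for S.

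Other parts of the translation machinery were counted with the same fits. In **Nog** at stage 11.5 the background was 4.15% of all probe sets called higher and 4.42% lower. In **Nog** at stage 11.5, where 39 members fell, 61 probe sets of initiation factors had 2 higher and 2 lower (median -0.02), among them *eif3a.S*, the scaffold of eIF3, with 1.15 and 1.02 on its 2 probe sets and *eif4e3.L*, of the cap-binding family, with -0.42. None of 16 elongation factor probe sets was called (median -0.06). Of 19 probe sets for other mRNAs that carry a TOP motif in mammals 1 was higher, *pabpc1.S* of the poly(A)-binding protein (1.08), and 1 lower, *fau.L*, which encodes a 40S protein in fusion with a ubiquitin-like one (-0.42). Ribosome biogenesis genes had 3 of 48 higher, with *ncl.S* (nucleolin, 0.60) and *fbl.S* (fibrillarin, 0.37), and 1 lower, *nop16.S* (-0.37), and none of 10 RNA polymerase I and III probe sets was called.

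With stage each of these groups had more probe sets higher than lower, where 21.5% of all probe sets were higher and 26.6% lower. Of 48 biogenesis probe sets 34 rose and 3 fell (median 0.52), with 1.80 for *utp15.L* of the small subunit processome. Initiation factors had 35 of 61 higher and 13 lower (median 0.37), elongation factors 8 of 16 higher and 1 lower (median 0.28), with 3.35 for *eef1a1.S*, which brings aminoacyl-tRNA to the ribosome, the other TOP mRNAs 12 of 19 higher and 2 lower (median 0.60), and RNA polymerase I and III 4 of 10 higher and 2 lower (median 0.14). In clutch 2 against clutch 1 the counts were 28 higher and 5 lower of the biogenesis probe sets (median 0.29), 25 and 10 of the initiation factors (median 0.04), 10 and 1 of the elongation factors (median 0.26) and 12 and 0 of the other TOP mRNAs (median 0.30), with 1.68 for *rpsa.S*, itself a 40S protein gene whose symbol has no number. In clutch 4 against clutch 3, 64 members fell and 6 of 48 biogenesis probe sets did so, with 14 higher (median 0.03). Of all probe sets, 22.5% were higher and 22.4% lower in that comparison. In clutch 2 against clutch 1 these shares were 26.4% and 19.7%.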

How the data were processed

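Each sample was hybridised to 1 Affymetrix *X. laevis* array. The intensity values that the authors deposited are RMA summaries of each probe set, after background correction and quantile normalization between arrays. Neither the RMA version nor a genome build is given in the sources read. The deposited intensities ran from 4.67 to 16895 and are thus linear, although the study describes log2 values, so log2 was taken here. Of 15611 probe sets, 120 controls were left out. Of the 15491 others, 9304 had 1 gene symbol in the platform table, 195 several and 5992 none (2 symbols were updated). Another 11 probe sets listing several ribosomal protein symbols and 6 listing one with another gene or no suffix were not counted as members, and 19 members have names that mark shared signal between related transcripts. Names that mark an antisense target are carried by 14 members. Among them are the exceptions *rpl3.L* probe set 2, *rpl3l.L*, *rps10.L* probe set 2, *rpl35.L* probe set 2 and *rpl28.L*. *rpl35.L* probe set 1, which fell in **Nog** like most members, is also of this class. The part of this class in the results was not tested. The number of arrays limits the precision.

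Limma 3.58.1 (R 4.3.3) modelled 10 groups plus the clutch as a block, with 8 residual and 9.82 prior degrees of freedom, and the Benjamini-Hochberg adjustment was made per comparison over all probe sets. Arrays of one clutch deviated together. Their deviations from the condition means correlated by 0.485 to 0.801 at stage 11.5 (median 0.72) and by 0.681 to 0.841 at stage 10 (median 0.775), in 10 pairs of conditions each. For the members alone the median correlation was 0.695 at stage 11.5 and 0.88 at stage 10. The stages were compared with the clutch as a random block (duplicateCorrelation, 0.533 for all probe sets), with 10 residual and 7.48 prior degrees of freedom. Homeologs were compared on the L minus S difference of their brightest probe sets. The steps were tested on simulated data.

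Named are up to 8 called members per direction with the largest change between clutches or stages, up to 10 per comparison with **Ven**, up to 6 homeolog pairs, and *rpl8*, *rpl13a*, *rps6*, the stalk genes, the members with extreme ranges and 2 to 4 genes of each other list. *rpl22l1.L*, *rpl24.L* and *rpl3.L* were named after their values were seen. The members and lists were chosen with earlier results of these data known. Alternatives were no block, each stage alone, cyclic loess, equal array medians, a filter on dim probe sets, another variance prior, a stricter threshold, rank products, other choices of probe sets and each clutch left out. Plots were made in Python 3.11 with matplotlib 3.10.9.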

Additional observations from a re-analysis of the deposited data

Results flagged for a closer look

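The change of **Nog** against **Ven** differed between stage 11.5 and stage 10 by the test of the difference itself for 18 ribosomal protein probe sets, with adjusted p-values from 0.0611 to 0.0896 in limma. For 17 of them the stage 11.5 change was the lower one. Of all probe sets 1.56% were called, 0.555% higher and 1% lower. With no clutch block 0 members were called in place of 18. On the log2 scale the difference was -0.92 for *rps27.S* probe set 4, -0.77 for its probe set 3 and -0.66 for its probe set 1, and -0.80 for *rps21.S*, -0.80 for *rps6.L*, -0.78 for *rps28p9.S* probe set 1, -0.75 for *rps6.S* probe set 1, -0.65 for *rps18.L* and -0.60 for *rps13.L* among the 40S genes. Among the 60S genes it was -0.86 for *rpl35.L* probe set 1, -0.70 for *rpl24.L*, -0.70 for *rpl34.L* probe set 1, -0.70 for *rpl22.S*, -0.68 for *rpl30.S*, -0.65 for *rpl21.L* and -0.59 for *rpl27.S*, and the stalk gene *rplp2.S* had -0.62. *rpl3.L* probe set 2 had 0.80, the only one above 0. The brighter probe set 1 of that gene had -0.16 and did not pass the test (adjusted p = 0.749). At stage 10 the median change of **Nog** against **Ven** was 0.30 in clutch 1 and 0.01 in clutch 2. With 1 of these clutches left out each condition of that stage had 1 array. Such fits cannot decide which arrays the 18 calls needed. The median difference over all members was then -0.32 without clutch 1 and -0.60 without clutch 2.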

How the results depend on the processing

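Of 192 alternatives, 156 had the same count of calls as the main fit or a count within 1.5 times of it. Another 32 were weaker and 4 stronger. Many of the 156 had 0 calls in both, as in every stage 10 comparison with **Ven**, and so had no call to lose. A like count does not mean the same members, and with cyclic loess 39 of the 55 called with stage were shared. The median change of the members kept its sign in all 184 that give one. Members called at stage 11.5 went down as follows, from 40 for **Nog**, 7 for **Nog+Dkk**, 1 for **Dor** and 26 for the plasmid mean. With no replicate block they were 0, 0, 0 and 0, where 0, 12, 65 and 0 of all probe sets were called, so this loss was not particular to the members. The **Nog** difference between stages then had 0 in place of 18. No count of calls in the other comparisons moved by over 1.5 times, and stage had 64 without the block against 55. With each stage fitted alone they were 18, 0, 0 and 8, where 589, 272, 278 and 419 of all probe sets were called. At adjusted p below 0.05 they were 21, 1, 0 and 13. Rank products called 0 for each of **Nog**, **Nog+Dkk** and **Dor**. The call in **Dor** was lost (0) also with cyclic loess, the filter on dim probe sets and the trended prior, and the plasmid mean had 17 without probe sets that can share signal. Leaving out 1 clutch gave 13 to 23 in **Nog**, 0 to 15 in **Nog+Dkk**, 0 to 1 in **Dkk**, 0 to 1 in **Dor**, 6 to 17 in the plasmid mean, 28 to 73 with stage (33 without clutch 3), 0 to 39 for the **Nog** difference between stages and 0 to 5 for that of **Nog+Dkk**; a condition then had 1 array, assumed to vary like the others. Array medians set equal gave 69 with stage (median change 0.65) and cyclic loess 44 (median change 0.31). With the second brightest probe set, 3 homeolog pairs in place of 5 differed between clutches 4 and 3. Where the cause of a loss does not follow from fewer arrays or a stricter threshold it was not tested. The alternatives with 1 probe set per symbol and with probe sets of several ribosomal protein symbols were chosen after seeing the data.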

Other observations

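Gene groups outside the cytosolic ribosome were counted with the same fits. In **Nog** at stage 11.5, mitochondrial ribosomal proteins had 10 of 41 probe sets lower than in **Ven** and 0 higher (median -0.25), with -0.50 for *mrpl51.L* and -0.46 for *mrpl39.L*. Genes of oxidative phosphorylation had 15 of 69 lower and 0 higher (median -0.21), with -0.51 for *atp5mg.L* of the ATP synthase and -0.45 for *ndufs5.L* of complex I. Proteasome subunits had 2 of 51 higher, with 0.66 for *psmd2.L*, and 3 lower, with -0.48 for *psma5.S* (median -0.12). All of these stand beside a background of 8.57% of all probe sets called.

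With stage, 48.1% of all probe sets were called, 21.5% higher and 26.6% lower. At stage 11.5 mitochondrial ribosomal proteins had 1 of 41 higher than at stage 10 and 19 lower (median -0.28), with -1.42 for *mrps15.L*, and oxidative phosphorylation 3 of 69 higher and 29 lower (median -0.30), with -2.52 for *cox5b.2.L* of complex IV, whereas proteasome subunits had 9 of 51 higher and 4 lower (median 0.05). Between clutches oxidative phosphorylation had 51 of 69 higher and 3 lower in clutch 2 against clutch 1 (median 0.36), with 2.19 for *atp5f1d.L*, and 2 higher and 46 lower in clutch 4 against clutch 3 (median -0.30). Mitochondrial ribosomal proteins had 15 of 41 higher and 9 lower in clutch 2 against clutch 1 (median 0.07), and 7 higher and 18 lower in clutch 4 against clutch 3 (median -0.12). Proteasome subunits had 19 of 51 higher and 3 lower in clutch 2 against clutch 1 (median 0.08). They had 4 higher and 27 lower in clutch 4 against clutch 3 (median -0.19). The shares of all probe sets were 26.4% higher and 19.7% lower in clutch 2 against clutch 1, and 22.5% and 22.4% in clutch 4 against clutch 3.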
